A study of Mus musculus with 30 samples.

Results

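Liver was profiled as 1 of 15 adult mouse tissues, and the 2 arrays labelled liver are described here against the 28 arrays of the other 14 tissues. The members were taken from the sample labels alone, 2 of 30 arrays. All arrays held RNA of adult C57BL/6 males, aged 28 weeks according to the labels, with no treatment; the study's methods give another age. The other tissues, each on 2 arrays, were heart, muscle, bone, fat and skin, kidney and bladder, lung, the gut (stomach, small intestine, large intestine), eyes, brain cortex and cerebellum. The methods state that the 2 replicates of a tissue came from different animals, although the series design gives bone and fat a single replication. On every array the tissue RNA carried the dye Cy3 and was hybridised together with 1 common reference labelled with Cy5, a pool of cultured cell lines (a liver/hepatocyte line among them) mixed with RNA of embryonic stem cells (129ES by the labels) or of MC1 cells (by the methods). Values are log2(Cy3/Cy5) after normalisation, so a value of 0 is the level of the reference and a difference of 1 between tissues is a doubling of that ratio. For dim probes, and where the Cy5 level differed between arrays, this need not be a doubling of RNA. A whole organ was homogenised, so that more cells of a type and more RNA per cell cannot be told apart.

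The liver makes most proteins of the blood plasma, turns ammonia into urea, breaks down amino acids, fatty acids and foreign compounds, stores iron and builds bile and lipoproteins. Most of this work is done by hepatocytes, the epithelial cells that make up the bulk of the organ. They sit beside Kupffer cells (resident macrophages), sinusoidal endothelium, stellate cells and the cholangiocytes that line the bile ducts.

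A probe was called higher or lower in liver when its mean differed from the unweighted mean of the other 14 tissues by at least 2 on the log2 scale with an adjusted p under 0.05 (limma, Benjamini-Hochberg over 21019 probes). Of the 21019 probes, 1136 were higher (5.4%) and 933 were lower (4.44%), and the median difference over all probes was -0.10. Probes called higher had a median difference of 3.17 and reached 10.35. Those called lower had a median of -2.51 and reached -5.62, but 251 of them were not well above background on either liver array, so that only bounds could be given for these, and the 2 sides were not ranked by size. The higher probes were 54.9% of all calls, but 48.1% after median centring, 44.2% when the scanner's own processed signals were used and 44.6% with the authors' value table.

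A stricter rule asked that liver pass every one of the other 14 tissues separately, by at least 1 on the log2 scale with an adjusted p under 0.05. It was met by 486 probes above each other tissue (2.31%) and by 132 below each (0.628%). The latter count was 344 with the processed signals, 341 with the value table and 77 with the slide as a random block. Both liver arrays lay above all 28 other arrays for 1370 probes (6.52%) and below all of them for 915 (4.35%). Among the probes called higher, 781 had both liver arrays above every other array, and among those called lower 443 had both below.

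The 2 liver arrays correlated at 0.984 over all probes tested, with a median SD of 0.11 between them. Probes well above background made up 58.0% and 63.8% of all probes on the liver arrays, at the low end of the range over all arrays of 58.0% to 78.3%. The arrays of large intestine, fat and bone differed more between replicates (median SD 0.34, 0.29 and 0.20, against 0.07 to 0.13 elsewhere), and their values are named below where they bear on a gene. Both liver arrays shared 1 slide with both heart arrays and with no other tissue, which makes liver against heart the comparison within a slide. There 1325 probes were higher in liver (6.3%) and 1289 lower (6.13%), or 1839 and 2135 with the value table. Liver and slide cannot be told apart in the other comparisons beyond what heart shows.

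The scanner files give probe identifiers in place of gene names. Symbols came from the study's own probe lists and covered 5049 of the probes tested, 185 of those called higher and 134 of those called lower. Of the named probes 3.66% were thus higher and 2.65% lower, below the shares of all probes tested (5.4% and 4.44%) that are set beside the lists. Chromosome 1 held 18.5% of these named probes, 30.3% of the named higher ones and 36.6% of the named lower ones. The genes below are therefore those with a name, and albumin is not among them. Current symbols are given in parentheses where they differ.

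The label was checked against markers of hepatocytes. Of 12 marker genes 11 had a named probe, and all 11 were higher in liver, with a median difference of 6.21 and all 11 also above heart on the shared slide. Fewer markers of other cell types were called. Over all probes 5.4% were higher and 4.44% lower, and these short lists were not compared with those shares by a test. Of 12 leukocyte and Kupffer cell markers only Marco was called (median 0.09), of 7 markers of endothelium and vessel wall none (-0.53), and of 7 fibroblast and stellate cell markers Ddr2, which was lower (median -1.65). With the processed signals, and also with the value table, 3 of these 7 markers and 1 of endothelium and vessel wall were lower. Of 5 bile duct markers measured, Tm4sf4 and Pigr were higher (median 1.11). Of 2 markers of exocrine pancreas, 3 of intestine and 5 of skeletal muscle none was higher and none lower here (medians -0.12, -1.47 and -1.57). With the processed signals, the value table and Cy3 alone 3 of the muscle markers were lower, after median centring 1, and of the intestine markers 1, 2 and 1 in the first 3 of these scalings.

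Sequences upstream of 7 genes are printed to show what lies before genes far above and far below the other tissues, the first 5 high and first 2 low ones by the ratio with at least 150 bases outside the annotated gene. They come from RefSeq's promoter table of build GRCm38.p6 and read 5′ to 3′ on the strand of the gene. Capitals mark a match to GTTAAT (the half-site of HNF1, a liver and kidney factor) or TTGCNNAA (a C/EBP-type site) on either strand. Cps1 and the others in between are not shown.
Spp2, chr1:88406760-88406965, plus strand: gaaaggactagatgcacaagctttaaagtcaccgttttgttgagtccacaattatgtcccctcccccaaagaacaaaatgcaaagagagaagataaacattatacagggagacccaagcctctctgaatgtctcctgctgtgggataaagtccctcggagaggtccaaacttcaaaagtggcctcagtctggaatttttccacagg
Aox3, chr1:58112886-58113134, plus strand: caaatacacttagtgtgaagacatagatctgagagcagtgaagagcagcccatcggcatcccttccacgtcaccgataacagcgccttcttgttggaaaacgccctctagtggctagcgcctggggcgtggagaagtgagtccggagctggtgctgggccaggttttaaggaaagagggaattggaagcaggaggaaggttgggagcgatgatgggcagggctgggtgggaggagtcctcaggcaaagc
C4bp, chr1:130661658-130661868, minus strand: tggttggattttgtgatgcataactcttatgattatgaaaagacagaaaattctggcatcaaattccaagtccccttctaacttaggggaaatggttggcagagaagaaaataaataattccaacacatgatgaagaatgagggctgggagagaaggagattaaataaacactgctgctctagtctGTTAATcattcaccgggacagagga
Agxt, chr1:93134990-93135239, plus strand: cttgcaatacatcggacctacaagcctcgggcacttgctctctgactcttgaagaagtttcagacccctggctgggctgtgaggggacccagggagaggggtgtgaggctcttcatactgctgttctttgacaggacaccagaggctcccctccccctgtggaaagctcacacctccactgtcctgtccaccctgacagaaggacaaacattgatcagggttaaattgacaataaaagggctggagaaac
Gsta3, chr1:21240335-21240564, plus strand: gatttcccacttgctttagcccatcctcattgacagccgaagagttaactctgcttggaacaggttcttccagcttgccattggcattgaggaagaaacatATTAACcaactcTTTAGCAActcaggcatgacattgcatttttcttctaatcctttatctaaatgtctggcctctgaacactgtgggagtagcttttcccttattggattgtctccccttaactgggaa
Acss1 (low in liver), chr2:150668241-150668490, minus strand: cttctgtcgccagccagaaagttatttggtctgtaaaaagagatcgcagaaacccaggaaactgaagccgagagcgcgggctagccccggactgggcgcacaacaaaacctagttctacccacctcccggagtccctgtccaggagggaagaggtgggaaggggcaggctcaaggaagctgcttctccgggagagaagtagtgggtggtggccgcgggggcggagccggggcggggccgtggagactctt
1190002H23Rik (Rgcc, low in liver), chr14:79301636-79301885, minus strand: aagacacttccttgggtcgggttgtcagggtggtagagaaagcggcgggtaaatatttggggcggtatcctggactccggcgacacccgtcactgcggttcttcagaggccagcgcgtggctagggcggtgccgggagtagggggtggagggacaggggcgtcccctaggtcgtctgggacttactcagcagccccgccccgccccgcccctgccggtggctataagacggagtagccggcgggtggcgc

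The windows of the 2 low genes were richer in CpG dinucleotides (15 in Acss1, 22 in 1190002H23Rik) than those of the 5 high genes (1 to 9). Over all named genes with an entry, CpG content relative to base composition had a median of 0.474 in 181 promoters of genes higher in liver, 0.604 in 138 promoters of genes lower in liver and 0.736 in 4609 promoters of named genes tested, beside 0.384 in all 32851 promoters of the table. The GTTAAT half-site stood within 250 bases upstream in 8.29% of the higher promoters, 3.62% of the lower, 4.47% of those of all named genes and 6.43% of all promoters in the table. TTGCNNAA was found in 11%, 7.25%, 8.2% and 9.56% of the same 4 sets, and the forkhead motif TGTTTAC in 3.87%, 2.17%, 2.6% and 3.17%. The HNF4-type motif CAAAGTCCA was in 2 higher promoters (1.1%) and in none of the lower, beside 0.13% of those of all named genes and 0.384% of all promoters. TATAAA on the gene's strand, starting 20 to 45 bases upstream, was in 3.31% of the higher promoters, 2.17% of the lower, 1.67% of those of all named genes and 2.14% of all promoters. These shares describe letters in a window and were not tested.

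Cps1, which makes carbamoyl phosphate from ammonia in the mitochondria, read 9.06 and 8.87 on the liver arrays and -0.60 to 7.0 (median -0.26) on the 28 others. Small intestine came next at 6.83, and large intestine 1 read 4.34 where its other array was at -0.14. The difference from the other tissues was 8.54 (SE 0.56, adjusted p 3.39e-10).

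**Figure D1:**
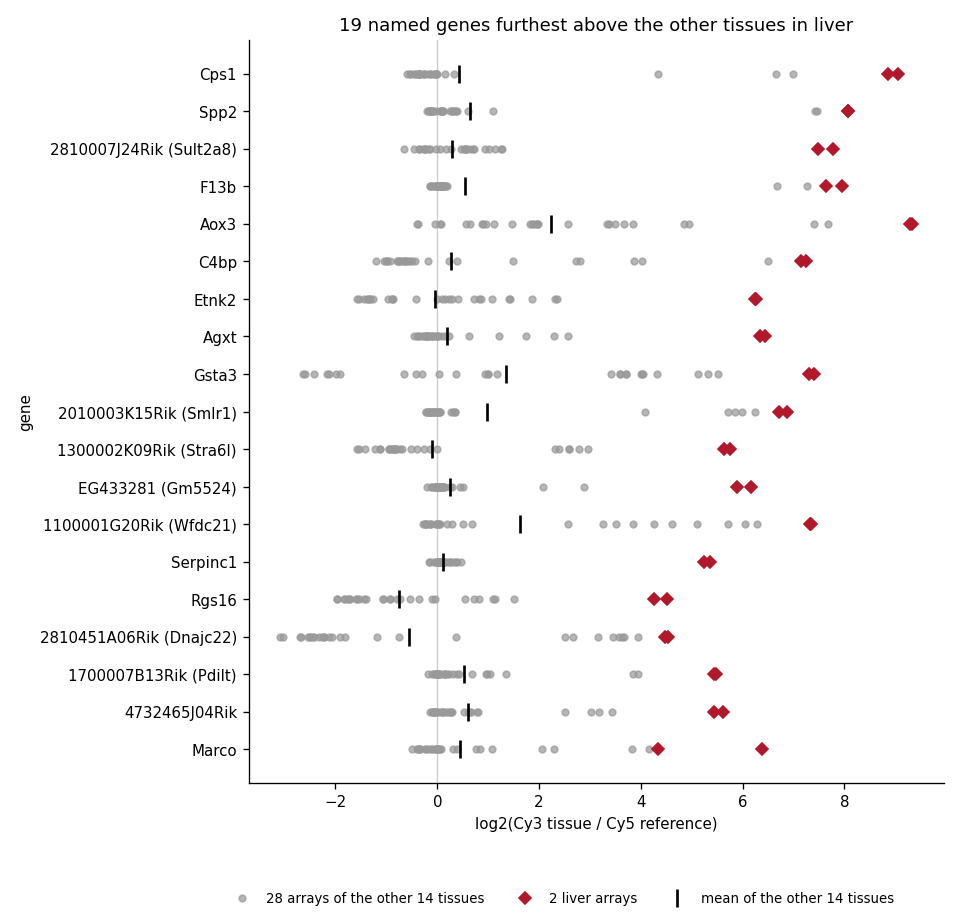
Log2(Cy3/Cy5) on the x axis for 19 of the 20 named genes with the greatest positive difference among those with both liver arrays above all others, 1 row per gene. Red diamonds are the 2 liver arrays, grey points the 28 arrays of the other tissues and black ticks the mean of the other 14 tissues; kidney or small intestine lie closest to liver for Spp2, F13b and Cps1, while Serpinc1 and 2810007J24Rik have no other tissue near.

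Serpinc1 (antithrombin, the main inhibitor of thrombin) read 5.25 and 5.36 in liver and at most 0.47 elsewhere, a difference of 5.20 (SE 0.11, adjusted p 6.55e-18). It had no second tissue within reach of liver.

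A second pattern was a gene shared with kidney. Spp2, a secreted phosphoprotein of plasma and bone, read 8.07 on both liver arrays, 7.44 in kidney and at most 1.09 on any remaining array. F13b, the carrier subunit of coagulation factor XIII, read 7.95 and 7.64 in liver and 6.98 in kidney, and was well above background on 2 of the 28 other arrays, so its mean over the others is mostly background. Neither was above each other tissue by the stricter rule, as kidney lay within 1 of liver. Their differences from the mean of the others were 7.42 (SE 0.12) and 7.25 (SE 0.12).

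C4bp, which binds complement C4b and restrains complement, read 7.14 and 7.24 in liver. Stomach was next by its mean at 3.94, but fat 1 alone read 6.50, far above fat 2, and the standard error of its difference of 6.93 was accordingly large (0.84, adjusted p 1.5e-06). Cfhr3, a gene of the complement list, was well above background on both liver arrays (1.98 and 2.42) and on none of the 28 others. Its fitted difference was 2.19, and its Cy3 level in liver was at least 3.49-fold higher than in the others, a bound taken, on each of the other arrays, against the lowest Cy3 signal well above background or the probe's own level, whichever was higher. The processed signals gave 5.13 for this dim probe, and 4.71 came from the value table, and its difference missed the call without liver 2 (1.97) and after median centring (1.75).

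Of the plasma protein, coagulation and complement list 12 members were measured, and 11 were higher (median 4.34), beside 5.4% of all probes. Gdf2, a circulating BMP ligand, was at 1.35 and under the size threshold. F5 (coagulation factor V) differed by 4.61 and Igfbp2 (a carrier of insulin-like growth factors) by 3.21. Igfbp2 was higher in bladder, at 2.85, than in liver, at 2.14. Fn1 (fibronectin) was below the reference in most tissues: liver read 0.02 and -0.29 and the others a median of -3.26, a difference of 2.77 (SE 0.51, adjusted p 0.000154). Bladder, at -0.27, was close to liver.

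Enzymes of nitrogen and amino acid metabolism formed the next group, with 10 of 17 measured members higher and none lower, beside 5.4% and 4.44% of all probes. All 17 differences were above 0 (median 2.74). Otc, the urea cycle enzyme after Cps1, read 3.64 and 3.58 in liver and a median of 0.22 elsewhere, a difference of 3.16 (SE 0.12). Agxt, which detoxifies glyoxylate in peroxisomes, read 6.34 and 6.44 and differed by 6.21 (SE 0.15). In bladder and muscle its Cy3 level lay under the lowest signal well above background, so this difference rests partly on background. Hrsp12 (Rida), an enamine deaminase, read 5.39 and 5.63 in liver and 5.40 in kidney, and so was a gene of both organs.

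Ahcy, which hydrolyses S-adenosylhomocysteine, differed by 4.60, Gcdh of lysine breakdown by 4.37, Afmid of tryptophan breakdown by 3.65 and Grhpr, a glyoxylate reductase, by 2.74. Kidney was the next tissue for each, closest for Grhpr with 1.96 against 2.39 in liver. Abat, which breaks down the neurotransmitter GABA, read 6.95 and 6.88 in liver and 6.69 in cerebellum, a difference of 3.31. Glul, glutamine synthetase, was barely past the threshold at 2.05 and missed it under 7 of the alternative settings, in which the difference ranged from 1.78 to 1.97, and without large intestine 1 (1.96).

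**Figure D2:**
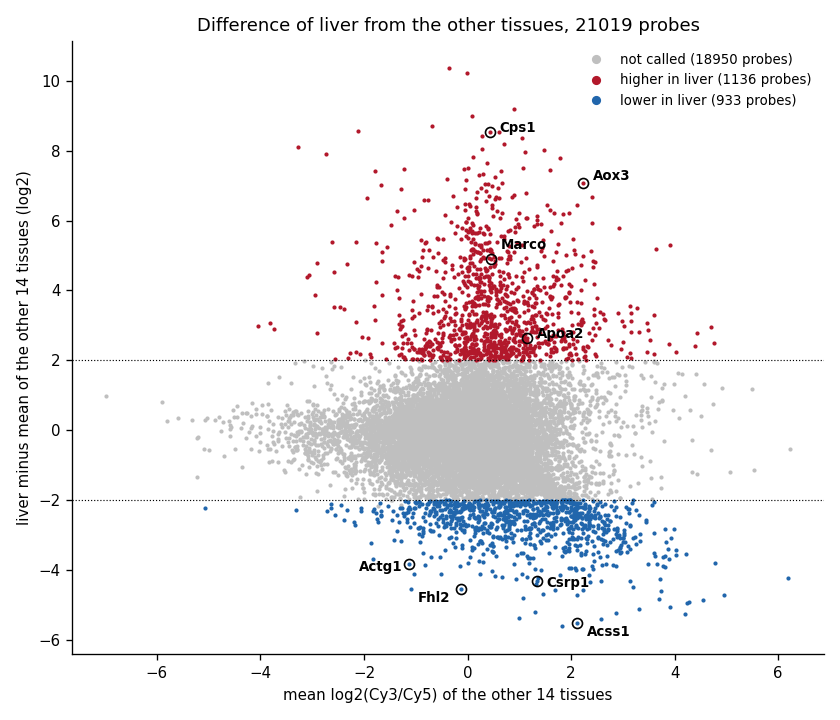
Difference of liver from the mean of the other 14 tissues (y axis, log2) against that mean (x axis, log2 of Cy3/Cy5) for 21019 probes. Red points are the 1136 probes called higher, blue the 933 called lower and grey those not called, with dotted lines at -2 and 2; the red points reach 10.35 and the blue -5.62.

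Detoxification enzymes were called in both directions. Of 19 measured, 9 were higher and 2 lower (median 1.59), beside 5.4% and 4.44% of all probes. 2810007J24Rik (Sult2a8), a sulfotransferase, read 7.48 and 7.77 in liver and at most 1.27 elsewhere, a difference of 7.33 (SE 0.22, adjusted p 1.87e-15). Gsta3, a glutathione S-transferase, read 7.31 and 7.40 against 5.22 in lung, the next tissue, and differed by 6.01. Ugt1a6a, which attaches glucuronic acid to phenols, differed by 3.29, Aldh9a1 by 2.77 and Adh5 by 2.75. Kidney and bladder were near liver for Ugt1a6a, at 2.565 and 2.552 against 3.179. For Aldh9a1 kidney, at 2.497, was above liver, at 2.3.

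The 2 detoxification genes lower in liver were Cbr2 and Mgst3. Cbr2, a carbonyl reductase known from lung, read -2.57 and -2.38 in liver and 4.46 in lung, a difference of -3.50 (SE 0.32, adjusted p 3.5e-08). Brain cortex (-2.52) and cerebellum (-2.56) were as low as liver. Mgst3, a microsomal glutathione transferase, read -0.18 and 0.45 in liver and differed by -2.22, or by -1.90 without liver 1, which is no call. Against the 7 tissues linked to the scan days of liver it missed the call as well, at -1.51 with the scan day as a block and -1.52 without.

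Members of 2 gene clusters of chromosome 1 allowed neighbours to be compared. The first 30 of the 60 bases of each probe are shown, because the reading of a family depends on how far its probes differ. In the best ungapped overlap of any pair within a cluster, 18 to 28 of 60 bases matched.
Aox1 probe: ccagaatcatctacagcactgctttacatg
Aox3 probe: tcacatgcactataagcaacgatgtttacg
Aox3l1 probe: ggcattgctactcggacctgaatcctatcc
Aox4 probe: aaaggaggtcctccaccatgggcagtcttg
Fmo1 probe: tgctgaaactctttagttttctggctttgc
Fmo2 probe: cttctttttccaacttcaggggttttaatc
Fmo4 probe: ttcttgaattggtacaaggtaagctaccga

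Aldehyde oxidases use molybdenum to oxidise aldehydes and ring nitrogens of drugs. Aox3 read 9.33 and 9.28 in liver, with lung at 7.55, and differed by 7.08 (SE 0.22). Aox1 read 4.64 and 4.83 against 3.17 in fat and differed by 3.65 (SE 0.26). Both passed every other tissue, although Aox1 exceeded heart by 1.70.

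The other 2 aldehyde oxidases were not called. Aox4 read -0.44 and -0.50 in liver and 4.04 in stomach (difference -0.26, adjusted p 0.28, and 0.13 against the 7 tissues linked by scan day). Aox3l1 (Aox2) stayed between -0.20 and 0.14 on all arrays, was not well above background on either liver array and differed by 0.02, a sign that turned with the scan day as a random block and without liver 2. Levels of different probes were not ranked.

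Flavin-containing monooxygenases oxidise nitrogen and sulfur compounds. Of the 3 described here only Fmo1 was called, with 5.09 and 5.33 in liver, 4.82 in lung and 4.67 in kidney and a difference of 2.44 (SE 0.23, adjusted p 4.98e-08), or 1.88 after median centring, which is no call. By the Cy3 level the order of the tissues turned, with kidney at 15.17, lung at 13.98 and liver at 13.50, beside Cy5 levels of 10.50, 9.17 and 8.29. Fmo4 differed by 0.42 with 1.82 from the processed signals and 1.77 from the value table. Fmo2 differed by -0.15, which became 0.87 with either of these and -0.95 with Cy3 alone. Neither was called under any of these scalings.

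Of 29 genes of fatty acid breakdown 9 were higher and none lower (median 1.35), beside 5.4% and 4.44% of all probes. With the processed signals, and also with the value table, 11 were higher and 1 lower. None of the 29 was above each other tissue. Acot12, which splits acetyl-CoA, read 7.59 and 6.81 in liver but 7.41 in kidney, and differed by 6.21 (SE 0.17, adjusted p 4.06e-16). Acsm3, a medium-chain acyl-CoA synthetase, read 7.24 and 7.33 in liver and 7.70 in kidney, and Pecr of fatty acid elongation 3.55 and 3.48 against 3.54.

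Heart shared a second set of these genes. Acsl1, which activates long-chain fatty acids, differed from the mean of the others by 3.05 (adjusted p 1.31e-09) but from heart by 0.27 (adjusted p 0.57). Acaa2 and Acad11, of the beta-oxidation spiral, differed from the others by 2.54 and 2.34 and from heart by 0.15 and 0.42. Acadm, the medium-chain acyl-CoA dehydrogenase, read 2.48 and 2.18 in liver and 4.30 in heart, a difference of -1.97 on the shared slide (adjusted p 0.001) that stayed just under the size threshold. Hadhb, Acadl and Acot2 of the same list were called lower than heart, with means of 1.81, 2.41 and -0.33 in liver and 4.76, 4.66 and 2.24 in heart.

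Acaa1b, a peroxisomal thiolase, read 5.57 and 5.72 in liver, 5.31 in bladder and at the median 1.93, and exceeded heart by 6.26 (adjusted p 3.6e-09). Its near copy Acaa1a differed from the others by 1.17, and cross-hybridisation between the 2 was not tested. Abcd3, a peroxisomal transporter, differed by 2.13, a value that missed the call with Cy3 alone (1.57) and without bone, fat and large intestine (1.96).

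Of 21 genes of lipid and sterol synthesis and transport 6 were higher and none lower (median 1.75), beside 5.4% and 4.44% of all probes. Elovl5, which elongates polyunsaturated fatty acids, read 2.86 and 3.65 and differed by 3.49 (SE 0.21). Abcb4, which exports phosphatidylcholine into bile, read 3.51 and 3.56 with muscle at 3.24, and differed by 3.09. Agpat2 of triglyceride synthesis differed by 2.54, Idh1 by 2.47 and Hsd17b7 of cholesterol synthesis by 2.36, while Acly, ATP citrate lyase, stayed under the threshold at 1.97 and Soat1, which esterifies cholesterol, had a difference of -1.63. Small intestine read 2.494 for Agpat2, against 2.874 in liver, and kidney 3.335 for Idh1, against 3.581.

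The acetyl-CoA synthetases differed in direction. Acss2, the enzyme of cytosol and nucleus, read 4.31 and 4.56 in liver and 4.37 in kidney, and was higher by 2.47 (SE 0.28, adjusted p 6.71e-07). Acss1, its mitochondrial relative, read -3.44 and -3.35 in liver and -0.96 to 4.96 (median 1.84) elsewhere. Its difference of -5.52 (SE 0.40, adjusted p 1.42e-09) was accompanied by one of -8.34 against heart, where it was highest at 4.94.

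Iron and haem genes had 3 of 11 members higher, beside 5.4% of all probes, and all 11 differences above 0 (median 1.02). Median centring left 1 of the 3 calls, while 2 genes were higher with the processed signals, Cy3 alone or the value table. Slc40a1, the iron exporter ferroportin, read 4.05 and 3.47 in liver and 2.55 in bone, a difference of 2.94 (SE 0.41, adjusted p 7.21e-06). Abcb6, a porphyrin transporter, differed by 2.15, or by 1.93 after median centring. Aco1, which doubles as an iron sensor, stood at the threshold with 2.00 and dropped under it in 5 settings (1.73 to 1.98) and when single arrays were left out, with 1.96 without liver 1 as the lowest. Kidney, at 2.52, was level with liver, at 2.49, for Aco1.

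Of 33 genes of protein export from the endoplasmic reticulum 3 were higher, beside 5.4% of all probes, and none lower (median 0.58), with 28 differences above 0. With Cy3 alone 2 were higher. Sec16b, a peripheral protein of export sites, differed by 3.72 (SE 0.18), with small intestine close behind at 3.50 to the 4.07 and 4.12 of liver. Lman1, the cargo receptor for coagulation factors V and VIII, read 2.08 and 2.34 against at most 0.73 on any other array and differed by 2.45. Pdia4, a disulfide isomerase, differed by 2.31, or by 1.95 with Cy3 alone.

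**Figure D3:**
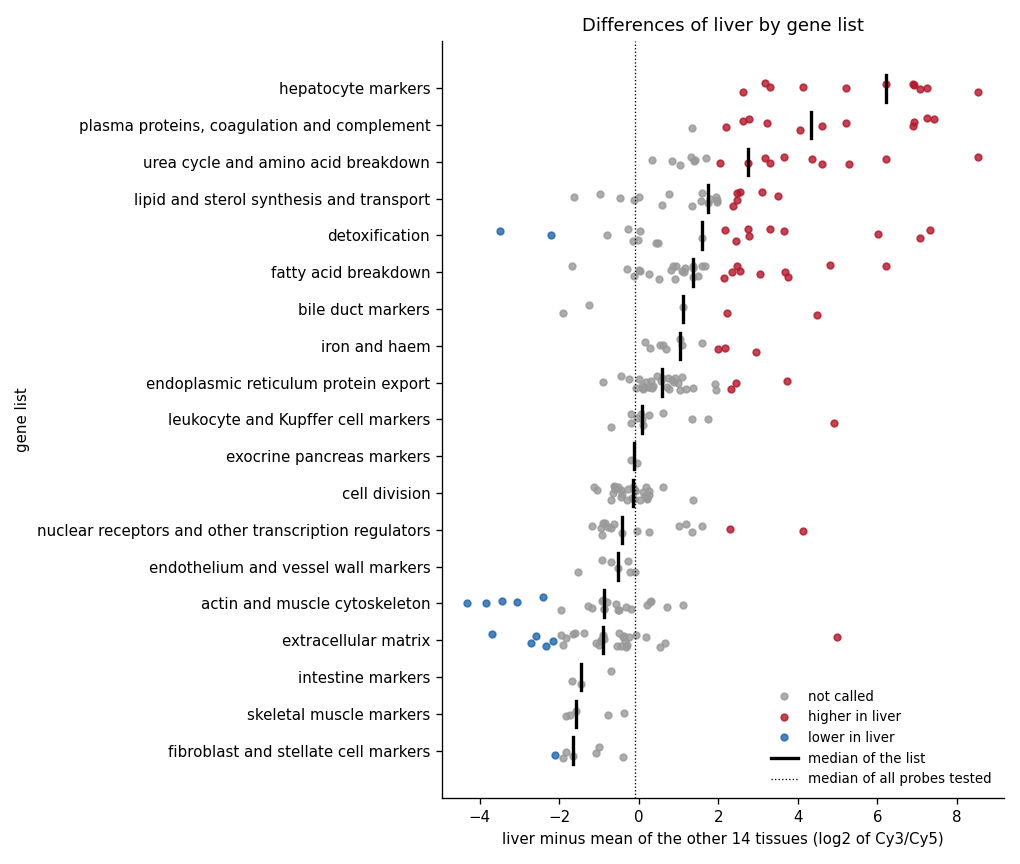
Difference of liver from the mean of the other 14 tissues (x axis, log2) for the measured members of 19 gene lists (y axis), 1 point per gene, red if called higher, blue if called lower and grey if not called. Thick bars are list medians, from 6.21 for hepatocyte markers to -1.65 for fibroblast and stellate cell markers, and the dotted line is the median of all probes, -0.10.

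Of 17 nuclear receptors and other transcription regulators 2 were higher, beside 5.4% of all probes, and none lower (median -0.42). Median centring left 1 higher, and 3 members were lower with the processed signals and with the value table. Nr1i3, the nuclear receptor CAR that switches on drug-metabolising enzymes, read 4.54 and 4.70 in liver, 3.87 in small intestine and a median of 0.19, a difference of 4.13 (SE 0.11). Nr5a2, a receptor that drives bile acid genes, read 1.1 and 1.24 against at most -0.22 and differed by 2.29 (SE 0.23, adjusted p 1.44e-07). This dim probe gave 5.84 with the processed signals, 5.34 with the value table and, after median centring, 1.69, which is no call.

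Marco, a scavenger receptor of macrophages, was the 1 named macrophage gene far above the other tissues. It read 6.37 and 4.35 on the liver arrays, a gap of 2.03 between replicates, and 4.0 in lung, whose alveolar macrophages also carry it. Both liver arrays were above all others and its difference was 4.91 (SE 0.28, adjusted p 4.02e-11). Ptprc, the pan-leukocyte antigen, differed by 0.07 and Fcgr2b, an inhibitory Fc receptor also made by liver sinusoidal endothelium, by 1.73 with no call.

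Among the bile duct markers Tm4sf4 read 4.22 and 4.37 in liver and 3.81 in small intestine, a difference of 4.47 (SE 0.37). By the Cy3 level small intestine was the higher of these, at 15.17 against 15.04, with Cy5 at 11.36 and 10.75. Pigr, which carries IgA into bile and gut, read 3.55 and 2.63 in liver and 4.71 in small intestine and differed by 2.22, or by 1.76 without liver 1 and 1.56 after median centring, neither of which is a call. With the processed signals it was 3.76. Sctr, the secretin receptor, and Elf3 were not called, at -1.90 and -1.27. With the processed signals, and likewise with the value table, 1 of the 5 bile duct markers was lower.

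The remaining named genes at the top had varied partners. Etnk2, an ethanolamine kinase, differed by 6.30 and passed every other tissue. 1300002K09Rik (Stra6l), a receptor for retinol-binding protein, differed by 5.79, 2010003K15Rik (Smlr1) by 5.81 with small intestine at 6.05, and 1100001G20Rik (Wfdc21) by 5.71 with skin at 6.17. Rgs16, which turns off G protein signals, read 4.27 and 4.52 in liver and at most 1.51 elsewhere, and differed by 5.14 (SE 0.22). 2810451A06Rik (Dnajc22), 1700007B13Rik (Pdilt), EG433281 (Gm5524) and 4732465J04Rik each had kidney as the next tissue and differed by 4.92 to 5.78. All 20 of these top genes were also higher than heart on the shared slide.

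Kidney was the tissue closest to liver by several measures. It was the next highest tissue for 350 of the 1136 higher probes (30.8%), followed by small intestine with 193 (17%), whereas brain cortex was next for 20. Over all probes tested kidney had the highest mean of the other tissues for 7.2%. In direct comparison 810 probes were higher in liver than in kidney and 1005 lower, the fewest of any tissue, against 1817 and 2408 for brain cortex. The means of liver and kidney correlated at 0.65 over probes, which share the reference, and those of liver and brain cortex at 0.27.

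On the lower side, beside Acss1, stood 1190002H23Rik (Rgcc), a regulator of the cell cycle. It read -2.82 on both liver arrays and -0.68 to 5.46 elsewhere (median 2.30), a difference of -5.39 (SE 0.27, adjusted p 7.65e-12). It lay below each other tissue, as did Acss1. Fhl2, a LIM protein of heart muscle, read -4.94 and -4.39 in liver, 6.18 in heart and -4.14 on the closest array, muscle 1, a difference of -4.54 (SE 0.37).

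**Figure D4:**
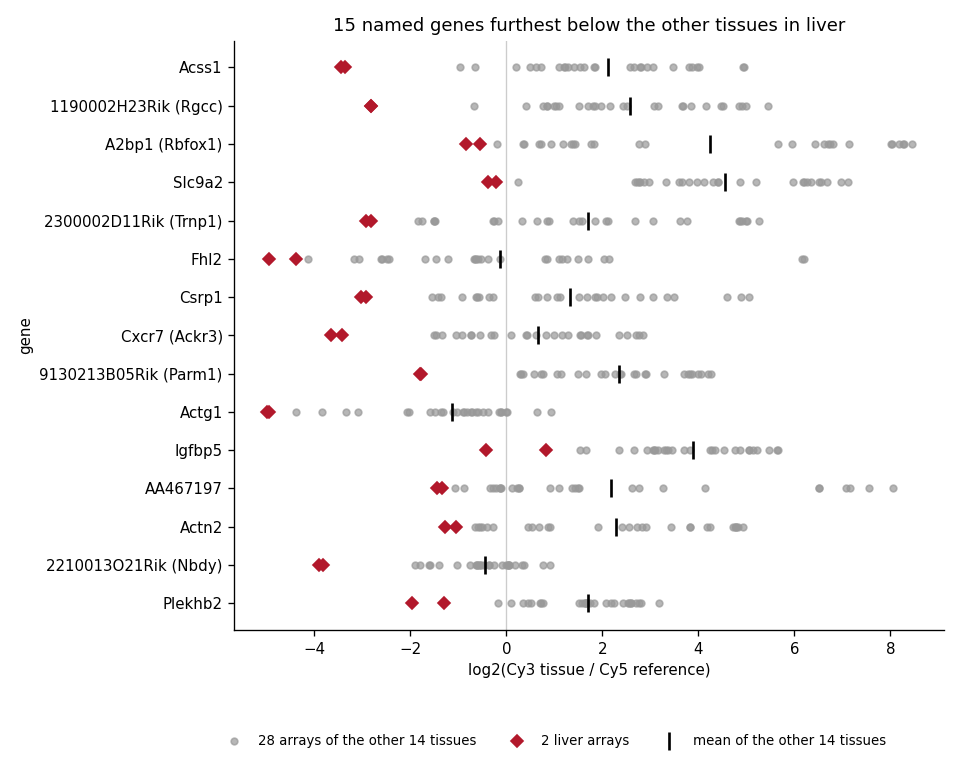
Log2(Cy3/Cy5) on the x axis for the 15 named genes with the most negative difference among those with both liver arrays below all others, drawn as in the plot of high genes (red diamonds liver, grey points the other 28 arrays, black ticks the mean of the other tissues). Acss1, 1190002H23Rik and 9130213B05Rik show a clear gap to the next array, while Fhl2, Actg1 and AA467197 have a muscle array close to liver.

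For 5 of the 15 genes no liver array was well above background, so only a bound could be given. A2bp1 (Rbfox1), a splicing factor of neurons and muscle, was at least 35.2-fold lower than the mean of the others, with brain cortex at 8.36. Slc9a2, a sodium/proton exchanger of epithelia, was at least 37.4-fold lower, with small intestine at 6.84. Actn2, the alpha-actinin of the sarcomere, was at least 27.3-fold lower, 9130213B05Rik (Parm1) at least 16.6-fold and AA467197 at least 12.2-fold.

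The fitted differences of such dim probes depended on the background correction. That of 9130213B05Rik was -4.14, and -7.69 or -7.56 with the processed signals or the value table. That of Actn2 was -3.45, and -6.55 or -6.33. AA467197, which was highest in large intestine at 7.81, had -3.57, -6.71 or -6.51, and -2.05 against the 7 tissues linked by scan day.

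Of 23 genes of the actin and muscle cytoskeleton 5 were lower, beside 4.44% of all probes, and none higher (median -0.87). Actg1, the gamma actin of non-muscle cells, read -4.95 and -4.99 in liver and a median of -0.85, a difference of -3.84 (SE 0.20, adjusted p 1.26e-11). Muscle was the nearest tissue, and the -1.75 from heart was not called. Csrp1, a LIM protein of smooth muscle, read -2.91 and -3.04 in liver and 4.97 in bladder and differed by -4.31 (SE 0.34).

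Ppp1r12b, a subunit of myosin phosphatase, differed by -3.06 and Dst, which links cytoskeletal filaments, by -2.42. Actb, the beta actin often used as a constant gene, read -2.53 and -2.27 in liver with a difference of -1.29 (adjusted p 1.52e-06), under the size threshold and 0.16 from heart. Desmin (Des) stayed at -1.95.

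Extracellular matrix genes had 5 of 32 members lower, beside 4.44% of all probes, and 1 higher (median -0.90). With the processed signals 11 were lower, and 10 with the value table. Igfbp5, a matrix-bound carrier of insulin-like growth factors, read -0.43 and 0.83 in liver, a gap of 1.25, and at least 1.53 on every other array, a difference of -3.68 (SE 0.33, adjusted p 2.65e-08). Sulf1, which trims heparan sulfate, differed by -2.71, Aebp1 by -2.58, Olfml2b by -2.33 and Ltbp3, a binding protein of latent TGF-beta, by -2.16. Olfml2b was at -1.86 against the 7 tissues linked by scan day.

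The exception was Prg4, the joint lubricant lubricin. It read 7.35 and 7.07 in liver, 8.62 on bone 2 alone and a median of 1.94, and differed by 4.98 (SE 0.67, adjusted p 4.83e-06), while the 2.15 from heart missed an adjusted p of 0.05 (0.073). The collagens Col3a1 and Col6a3 stood at -1.83 and -1.90 without a call. Ddr2, a collagen receptor of stellate cells, differed by -2.12 and missed the call in 4 settings (-1.99 to -1.73).

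Further single genes low in liver were Cxcr7 (Ackr3), a scavenging chemokine receptor, at -4.19, 2300002D11Rik (Trnp1) at -4.56, 2210013O21Rik (Nbdy) at -3.42 and Plekhb2 at -3.33. All 4 were below each other tissue. Of 28 cell division genes none was called in either direction, beside 5.4% and 4.44% of all probes (median -0.16). Cks2, a partner of cyclin-dependent kinases, had the greatest difference among them at 1.36, and Kif23 of cytokinesis the most negative at -1.13.

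The reference channel was not the same on the liver arrays for the brightest liver genes. Over all probes the Cy5 level of the liver arrays differed from that of the other arrays by a median of -0.02. It was more than 1 above for 295 probes (1.4%) and more than 1 below for 78. Such probes were not particular to liver: set against the remaining tissues in the same way, each of the other 14 had between 109 (bladder) and 301 (brain cortex) of them above. Lct, for example, the intestinal lactase, had a Cy5 level of 13.73 in small intestine and 7.08 in liver, and Myl1, a myosin light chain, 13.40 in muscle and 6.59 in liver. Orders of tissues by the ratio, the next tissues named here included, therefore hold for the ratio alone. Among the 1136 probes higher in liver 276 (24.3%) had a Cy5 level more than 1 above the other arrays, and among the 933 lower 33 had one more than 1 below. That share was 0% where the log2 Cy3 level in liver was under 10, 13.6% between 12 and 14, 32.9% between 14 and 16 and 63.4% over 16, with a median Cy5 shift of 2.23 in the last class.

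**Figure D5:**
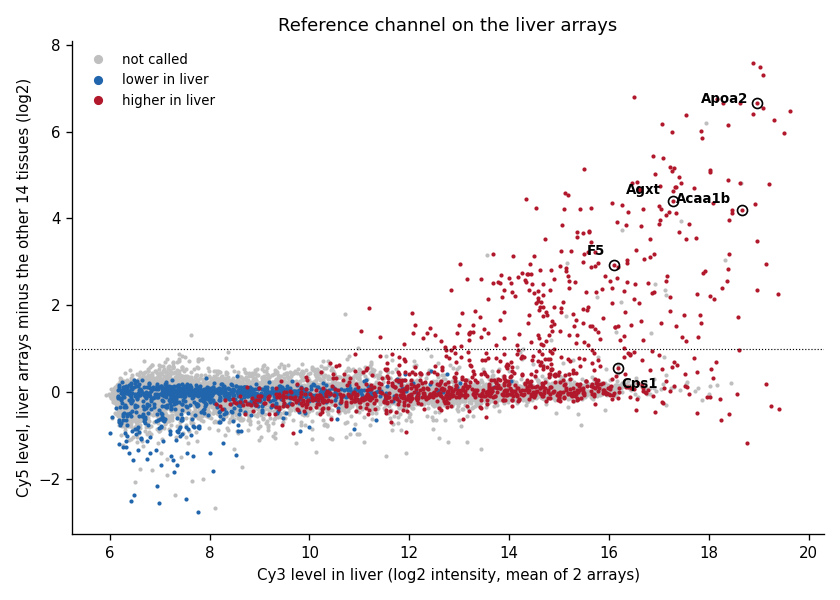
Cy5 (reference) level on the liver arrays minus that on the other arrays (y axis, log2) against the Cy3 level in liver (x axis, log2 intensity) for 21019 probes, coloured by call. Most probes lie along 0, but among red points over 16 on the x axis 63.4% are above 1 (dotted line), with Apoa2 at 6.66 and Agxt at 4.41, while Cps1 is at 0.55.

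Apoa2, the second apolipoprotein of HDL, showed the largest such shift of the named genes. By the ratio it read 3.71 and 3.85 in liver, below cerebellum at 4.28, and differed from the mean of the others by 2.63 (SE 0.33). By Cy3 alone it stood at 18.97 in liver and 12.91 in cerebellum, the next tissue, and differed by 8.35 after quantile normalisation. Its Cy5 level was 15.19 on the liver arrays and 8.24 to 8.69 on those of the other tissues. Acaa1b, which had kidney next by Cy3, had 6.70 by Cy3 alone in place of 3.67.

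The Cy5 shift was 4.41 for Agxt, 2.93 for F5, 2.68 for C4bp, 2.59 for Serpinc1 and 2.49 for Cyp27a1, a bile acid enzyme whose ratio difference of 1.59 was under the size threshold while its Cy3 difference was 4.07. Of the 1136 probes higher in liver 237 had another tissue above liver by the ratio, and for 10 of these liver was the highest by Cy3. In the other direction, 899 had liver highest by the ratio, and for 96 of these another tissue was highest by Cy3, Fmo1, Tm4sf4 and Prg4 (bone 14.03, liver 13.86) among them. The cause of the Cy5 shift was not tested. Where it occurs, the ratio gives a smaller difference than the Cy3 level.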

How the data were processed

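Total RNA of 15 tissues was hybridised on 30 arrays of a 44K Agilent design with 60-base probes, and the deposited scanner files (grid on build mm7, NCBI35) give the mean and background intensity of each spot in both channels. The deposited value table holds log10 Cy3 levels that the authors adjusted for the variation of the Cy5 channel; over 11667 probes well above background in both channels on all arrays its slope was 0.998 on log10 Cy3 and -0.997 on the Cy5 deviation, and its scale per array was otherwise kept. It named the 25030 probes used and served as an alternative.

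Mean signals were background-corrected (normexp, offset 50), left without control spots and outlier flags (0.0377% of values) and normalised by loess within arrays in limma 3.58.1 (R 4.3.3). Repeated spots were averaged. Probes well above background in Cy3 on both arrays of at least 1 tissue were tested (21019, of which 167 lacked an array). All 30 arrays entered 1 model with 1 coefficient per tissue, and liver was set against the unweighted mean of the other 14, against each of them and against heart, with moderated tests and Benjamini-Hochberg adjustment. No probe was saturated. With 2 arrays per tissue the number of arrays limits the precision, and no dye swap was made.

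Bounds for probes below background set the Cy3 mean of one group against that of the other after loess and Aquantile, with each dim spot at its own level or at the lowest Cy3 level well above background on its array, whichever was higher, and are open to dye bias. Symbols came from the probe lists of the study (5971 probes, 5619 names), of which 5485 probes matched RefSeq (assembly GRCm38.p6), 1866 of these through a synonym; a probe without a name here may still have a gene. Where a symbol had several probes, the value-table probe of highest mean Cy3 was used. Named are the 20 most positive and 15 most negative genes whose liver arrays lie beyond all other arrays, and list members; some of these are not reported here. The gene lists and their members were chosen with earlier results of these data known. The model was tested on simulated data.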

Additional observations from a re-analysis of the deposited data

How the results depend on the processing

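Counts of probes kept within 1.5 times of the reported values for all settings except the following. When the scanner's own processed signals were used, 1967 probes were lower and 344 below each other tissue; when the authors' value table was used, 1919 were lower, 341 below each and 2135 lower than heart. A size threshold of 1 gave 2372 higher and 3122 lower probes, and a difference of at least 2 from each tissue gave 227 above and 14 below. The slide as a random block (correlation 0.693) left 77 below each, and 1127 higher and 885 lower; the scan day (0.586) left 1157 and 882. A fixed scan-day block could be fitted only against the 7 tissues linked to the scan days of liver (1211 and 1298); the same tissues without a block, added after seeing the data, gave 1209 and 1271.

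Leaving out each of the 30 arrays in turn gave 1131 to 1160 probes higher and 906 to 966 lower. Leaving out each of the 2 liver arrays gave 453 to 465 above each and 103 to 126 below each, and each of the 4 arrays of liver and heart gave 1306 to 1324 higher than heart and 1265 to 1309 lower. The lone remaining array of a tissue is then assumed to vary like the others. The differences between replicate 1 and replicate 2 correlated unevenly between tissues (33 of 105 tissue pairs above 0.1, range -0.246 to 0.342). This cannot tell whether the replicate numbers pair samples by animal, because slide and scan day also differ between the replicates of some tissues. With the replicate block 1136 probes were higher, 934 lower, 483 above each, 131 below each, 1327 higher than heart and 1290 lower, and no call of a gene named here changed.

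Among genes the sign turned for Aox3l1 (-0.004 with the scan day as a random block, -0.094 without liver 2, 0.133 without liver 1), Aox4 (0.127 with the scan-day block, 0.14 for the 7 tissues without it) and Fmo2 (0.865 with processed signals and value table, 0.132 without liver 1, -0.426 without liver 2), none of them called. Of 90 called genes none changed sign in any setting. List medians kept their sign under the scalings tried except those of leukocyte markers (-0.006 with Cy3 alone) and exocrine pancreas markers (0.122 with Cy3 alone).

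Limits: 2 arrays stand for liver, on 1 slide shared only with heart; dim probes carry differences that depend on the background correction; bright liver probes carry a raised Cy5 level; 5049 of 21019 probes tested have a name here; and near-identical family members could not be told apart beyond their probe sequences.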
